A study of Mus musculus with 3 samples.

Results

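Galectins and annexins are families of small proteins that bind the cell surface, galectins through its sugars and annexins through its lipids. The genes described are 3 galectin genes, *Lgals1*, *Lgals3* and *Lgals9*, and 4 annexin genes, *Anxa1*, *Anxa2*, *Anxa3* and *Anxa5*, which are 7 of the 27998 genes counted. Their rows were taken from the barcodes of the meninges libraries with at least 500 UMIs (unique molecular identifiers, each marking 1 captured RNA molecule), 174 to 4548 genes and under 8.3% of UMIs from mitochondrial genes, which 7057 barcodes passed. The genes were chosen by their levels across the cell types and by their difference between the groups in these same libraries. Their values are therefore a description and carry no test.

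All mice were male C57BL/6J animals of 10 to 12 weeks. Each library pooled the meninges of 4 mice, from which live nucleated single cells were sorted. The libraries HC 1 and HC 2 (replicates 1 and 2) came from unstressed mice left in their home cage. CSD 1 came from mice that had gone through 14 days of chronic social defeat and were picked as susceptible. They were picked by their urine scent marking and their behaviour in an open field, and the paper lists social interaction as well. Values of the 3 libraries are given in the order HC 1, HC 2, CSD 1. The methods state that another CSD pool was lost at encapsulation. Since CSD is a single pool, an effect of defeat and a peculiarity of its 4 mice cannot be told apart.

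Galectins bind galactose-containing sugar chains on glycoproteins, often after leaving the cell by a route without a signal peptide, and they tune adhesion, T cell survival and phagocytosis. Galectin-3, the product of *Lgals3*, is a long-used marker of macrophages and of monocytes that enter inflamed brain. Annexins bind acidic phospholipids in a calcium-dependent way. Annexin A1 is stored in neutrophil granules and acts on formyl peptide receptors to restrain neutrophil recruitment, annexin A2 forms a complex with S100a10 at the membrane, and annexin A5 binds the phosphatidylserine exposed on dying cells.

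In build GRCm38, the assembly also called mm10 that the submitters' processing notes name, the 7 genes are protein-coding and lie on 7 chromosomes. *Lgals1* spans 78926725 to 78930465 on chromosome 15, *Lgals3* 47367751 to 47386160 on chromosome 14 and *Lgals9* 78962974 to 78984946 on chromosome 11. *Anxa1* spans 20373428 to 20390944 on chromosome 19, *Anxa2* 69453620 to 69491795 on chromosome 9, *Anxa3* 96793339 to 96845966 on chromosome 5 and *Anxa5* 36448923 to 36475894 on chromosome 3. These are whole genes with exons, introns and UTRs in GENCODE vM21. *Anxa2*, *Anxa3* and *Anxa5* each overlap 1 other annotated gene on the same strand, and *Lgals1* has 2 pseudogenes named after it, so their counts could hold molecules of these neighbours or copies.

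The libraries held 8814690 to 10206236 UMIs. After removal of doublets 2549, 1686 and 2653 cells remained in HC 1, HC 2 and CSD 1, with medians of 2471, 2198.5 and 2350 UMIs. HC 2 stood apart, with 24.1% of its UMIs in near-empty barcodes (100 UMIs or fewer), droplets that hold mostly free RNA, against 7.87% in HC 1 and 5.48% in CSD 1. Its preneutrophil-like cells were also shallow, with a median of 876 UMIs against 10530.5 in HC 1 and 10645.5 in CSD 1. Pairs of libraries shared 3 to 8 cell barcodes. Clusters were made without the 7 genes or their wider list and named from marker genes as "-like" classes, of which 15 had at least 20 cells in every library.

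The unit of level is CPM, counts per 1e6 UMIs, here of all cells of a class in a library. The chemistry counts the 3′ ends of transcripts and the counts were not scaled by length, so levels are compared between classes and libraries and not between genes. The mean ± SD is over the 3 libraries (n = 3), of both groups. Free RNA adds molecules to every droplet, and its share in each class was estimated from B cell, T cell and NK cell genes that the class should lack. That estimate is an upper one: *Anxa1* lay at 0.231 to 0.301 of it in mature B-like cells.

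*Lgals1*, which encodes galectin-1, an immunoregulatory lectin, was highest in myeloid progenitor-like cells, at 1925.5 CPM in HC 1, 2288.9 in HC 2 and 2332.8 in CSD 1. All 3 libraries there lay above every library of NK-like cells, the next class, with 1340.4 CPM ± 36.2. Monocyte-like cells followed with 1226.5 CPM ± 381 and T-like cells with 905.5 CPM ± 90.3, and these neighbours in the order overlapped between libraries. Neutrophils were at the other end of the order. Their 3 classes had means of 187.1 to 196.7 CPM, at 0.539 to 1.01 of the level estimated from free RNA, so no *Lgals1* of their own could be made out there. Plasmacytoid dendritic-like cells, which had under 20 cells in HC 2 and stayed outside the ranking, had 2892.8 CPM ± 271. Basophil and mast cell-like cells, also outside it for their few HC cells, had 2003.1 CPM in HC 1, 1568.0 in HC 2 and 1150.1 in CSD 1. Where doublets were kept or clusters made at resolution 2, the progenitor class had under 20 cells in HC 2 and left the ranking, and monocyte-like cells were highest of the classes that remained, at 1574.0 and 1631.4 CPM.

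*Lgals3* was highest in monocyte-like cells, with 2668.1 CPM in HC 1, 3137.7 in HC 2 and 3711.0 in CSD 1. The lowest of these lay above every library of myeloid progenitor-like cells, which had 1944.9 CPM ± 413. Immature and mature neutrophil-like cells came next, with 1541.2 CPM ± 212 and 1439.0 CPM ± 181, and their libraries overlapped with each other and with the progenitors. Conventional dendritic-like cells had 1146.4 CPM ± 79.8. Border macrophage-like cells, the resident macrophages of the meninges, had 703.0 CPM ± 174, and microglia-like cells 386.9 CPM ± 105, which was 0.577 to 1.25 of the level estimated from free RNA. With each cell thinned to 500 UMIs, 71.6%, 65.4% and 84.9% of monocyte-like cells had a UMI of *Lgals3*. Mature B-like cells, a class not known for the gene, had 13.5%, 16.5% and 17.8% at the same thinned depth, from median depths of 1376 to 1664.5 UMIs against 4745 to 5148.5 in the monocytes.

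*Lgals9* encodes galectin-9, which has paired sugar-binding domains and is a ligand of the receptor encoded by *Havcr2*. It had few UMIs, 1545 over the 15 classes, and its order was set apart from those of the other galectins by B cell precursors. Pre-B-like cells had 315.5, 368.3 and 368.0 CPM and pro-B-like cells 329.3, 283.4 and 253.6 CPM in HC 1, HC 2 and CSD 1. The libraries of these classes overlapped, and all of them lay above microglia-like cells at 146.8 CPM ± 25.6, which in turn lay above NK-like cells at 85.3 CPM ± 1.35. Mature B-like cells had 50.4 CPM ± 14.1, below every library of both precursor classes. Outside the ranking, basophil and mast cell-like cells had 169.4, 174.2 and 122.9 CPM, from 37 UMIs, overlapping with microglia-like cells. With cells thinned to 500 UMIs pro-B-like cells came first, at 308.1 CPM. *Havcr2* itself was highest in microglia-like cells, at 92.1 CPM ± 12.1.

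*Anxa1* had its highest levels in the neutrophil classes. Immature neutrophil-like cells had 2273.5 CPM in HC 1, 2958.2 in HC 2 and 3135.3 in CSD 1, and preneutrophil-like cells, their dividing precursors, had 1741.8, 2029.1 and 2611.9 CPM. These overlapped, and both lay above mature neutrophil-like cells at 1044.2 CPM ± 197. Of the 15 classes monocyte-like cells were the next, with 336.6 CPM ± 89.6, and no library of theirs reached a library of mature neutrophils. Basophil and mast cell-like cells, which had under 20 cells in both HC libraries and stayed outside the ranking, had 727.5, 958.2 and 1194.0 CPM, overlapping with the mature neutrophils. In border macrophage-like cells the level was 109.7 CPM ± 39.2, at 0.327 to 0.479 of the estimate from free RNA.

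*Anxa2* ran the other way along neutrophil maturation. Its highest level was in mature neutrophil-like cells, with 830.4, 921.6 and 1099.1 CPM in HC 1, HC 2 and CSD 1. Monocyte-like cells had 815.7 CPM ± 90.0 and fibroblast-like cells 690.8 CPM ± 89.9, each overlapping with the class before it. Immature neutrophil-like cells had 561.2 CPM ± 87.2 and preneutrophil-like cells 339.0 CPM ± 51.7. Border macrophage-like and microglia-like cells were low, at 150.0 CPM ± 34.2 and 147.5 CPM ± 23.2.

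*Anxa3* was highest in microglia-like cells, with 506.7 CPM in HC 1, 443.6 in HC 2 and 528.4 in CSD 1, all above every library of any other of the 15 classes. Immature neutrophil-like cells had 299.2 CPM ± 6.79, preneutrophil-like cells 252.6 CPM ± 10.3 and fibroblast-like cells 245.6 CPM ± 15.3. The immature neutrophils lay above the preneutrophils in every library, and the preneutrophils and fibroblasts overlapped. Mature neutrophil-like cells were down at 84.8 CPM ± 18.3, at 1.04 to 1.86 of the estimate from free RNA.

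*Anxa5* was highest in fibroblasts and monocytes. Fibroblast-like cells had 433.5, 451.8 and 457.1 CPM and monocyte-like cells 427.7, 507.1 and 388.9 CPM in HC 1, HC 2 and CSD 1, which overlapped. Monocytes came first in some alternatives, at 547.4 CPM once free RNA was subtracted. Border macrophage-like cells followed at 298.2 CPM ± 36.8, below every library of the monocytes. Myeloid progenitor-like cells had 278.0 CPM ± 31.7, overlapping with the border macrophages, and conventional dendritic-like cells 223.1 CPM ± 58.6. Olfactory neuron-like cells, which come with the tissue near the nose, had 270.7 CPM ± 42.1. The 3 neutrophil classes had means of 73.4 to 117.4 CPM, and microglia-like cells had 75.3 CPM ± 10.3.

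**Figure D1:**
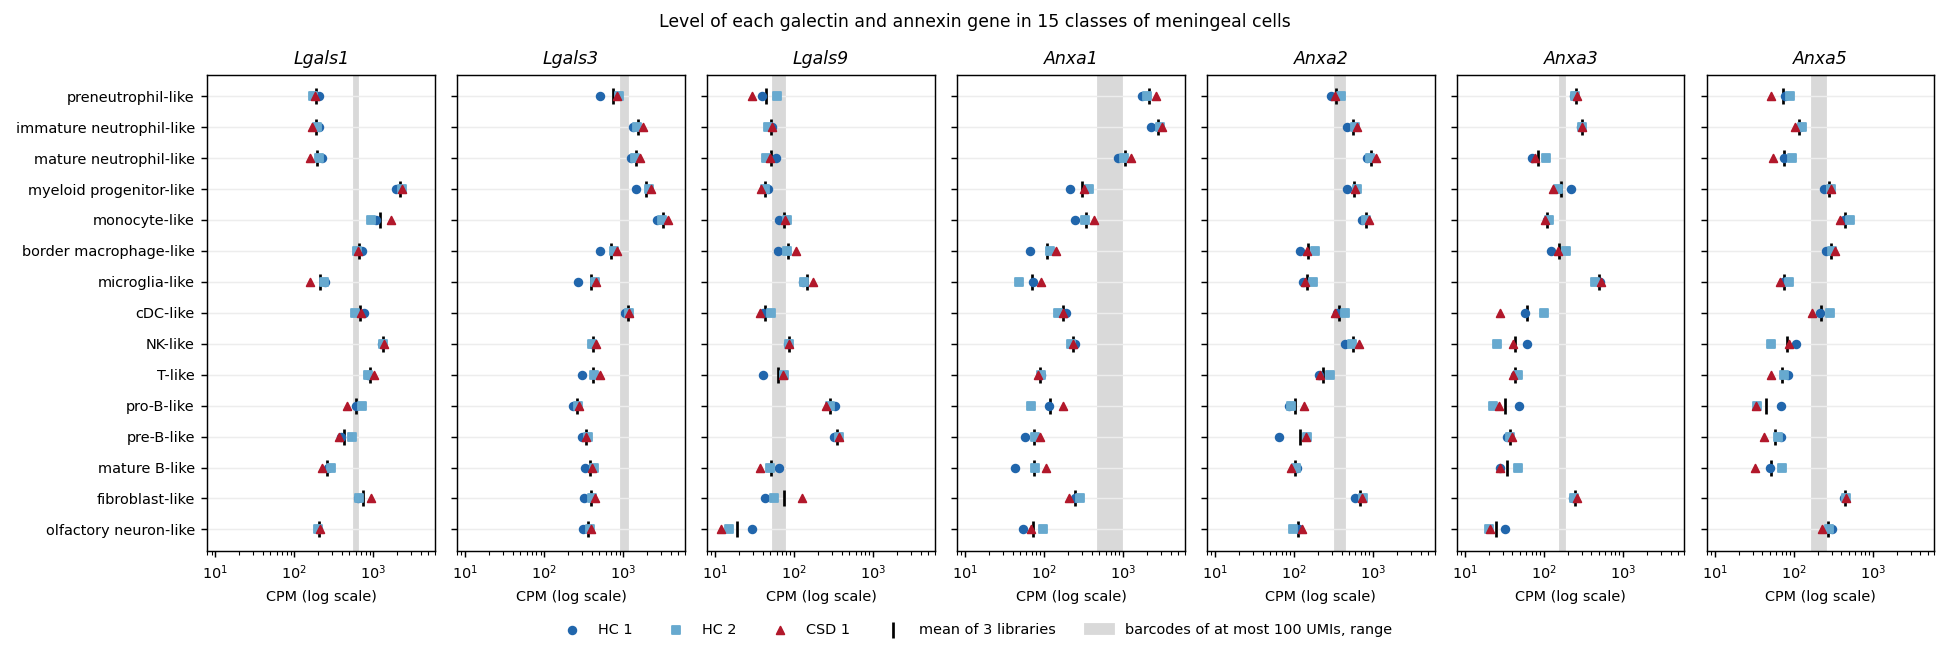
Level of each of the 7 genes (x axis, CPM on a log scale) in the 15 classes (y axis), with 1 marker per library, a black tick at the mean and a grey band for the range in barcodes of at most 100 UMIs. *Lgals3* peaked in monocyte-like cells at 3172.3 CPM, *Anxa1* in immature neutrophil-like cells at 2789.0 CPM, *Anxa3* in microglia-like cells at 492.9 CPM and *Lgals9* in pre-B-like cells at 350.6 CPM.

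Over the 14 pairs of neighbouring classes in each gene's order, the libraries overlapped in 9 pairs for *Lgals3*, in 10 for *Anxa3*, in 11 for *Lgals9*, *Anxa1* and *Anxa2*, and in 12 for *Lgals1* and *Anxa5*. Overlap was judged across libraries, without setting the classes side by side within each library, and by this measure the order is not settled within the overlapping pairs. Some of these pairs kept the same order in every library, such as immature over preneutrophil-like cells for *Anxa1*. Others did not, such as fibroblast- and monocyte-like cells for *Anxa5*. At the other steps the 3 libraries kept neighbouring classes apart, in levels from which free RNA was not subtracted and under the reported processing. The level exceeded 2 times the estimate from free RNA in all 3 libraries in 7 classes for *Lgals1* and *Lgals9*, in 5 for *Anxa2*, in 4 for *Anxa3* and *Anxa5* and in 3 for *Lgals3* and *Anxa1*. These counts depend on the estimated share of free RNA, which ran from 12.97% in NK-like cells of CSD 1 to 97.5% in conventional dendritic-like cells of CSD 1 and was 85.4% in progenitor-like cells of HC 1. *Lgals3* lay at 1.53, 1.77 and 1.07 of the estimate in the dendritic cells and at 1.81, 5.62 and 3.68 of it in the progenitors.

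**Figure D2:**
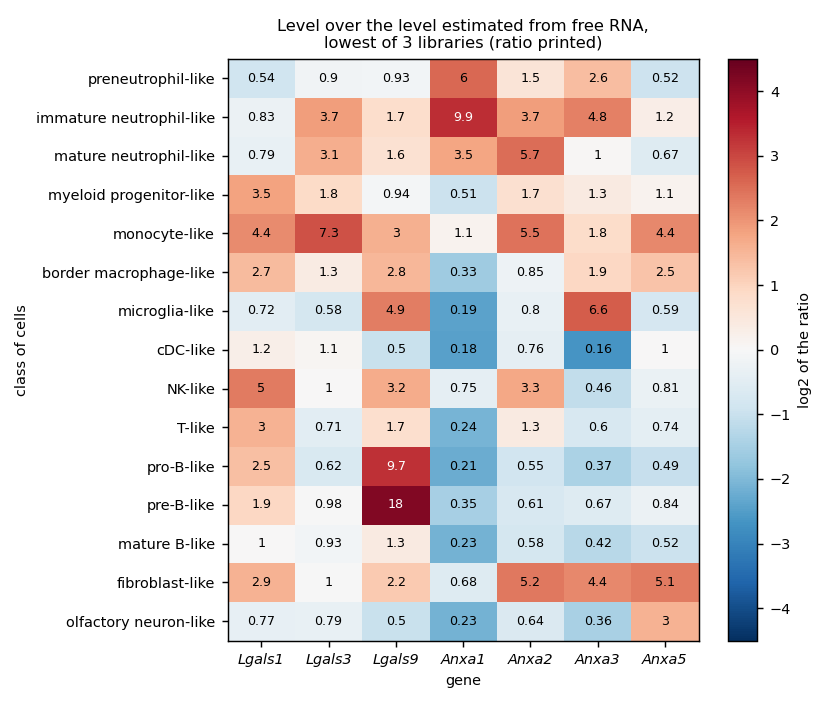
Ratio of each gene's level to the level estimated from free RNA, as the lowest of the 3 libraries, for the 15 classes (rows) and 7 genes (columns), coloured by its log2. *Lgals9* in pre-B-like cells reached 18.1 in its lowest library and *Anxa1* in immature neutrophil-like cells 9.88, while all 3 neutrophil classes lay under 1 for *Lgals1*.

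Neutrophils made up the largest class, and their clusters were laid out by the summed level of *Camp* and *Ngp*, granule genes that fade as neutrophils mature. *Anxa1* had 2127.6 CPM ± 443 in the preneutrophil-like cluster, 3158.9 CPM ± 517 in the immature cluster with the most *Camp* and *Ngp* and 2177.4 CPM ± 347 in the other immature cluster. It then had 1249.3 CPM ± 167 in the mature cluster led by *Retnlg* and *Cxcr2* and 542.4 CPM ± 109 in the mature cluster led by *Il1b*. In each library the *Il1b* cluster was the lowest of these 5.

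*Anxa2* had 339.0 CPM ± 51.7 in the preneutrophils, 454.1 CPM ± 69.1 and 741.9 CPM ± 135 in the immature clusters and 940.6 CPM ± 134 and 967.0 CPM ± 149 in the same mature clusters. Its libraries in preneutrophils lay below those of both mature clusters. *Anxa3* dropped earlier, with 320.3 CPM ± 19.3 and 261.7 CPM ± 35.4 in the immature clusters and 99.2 CPM ± 24.9 and 52.9 CPM ± 11.5 in the mature ones.

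*Lgals3* was highest in the middle of the order. The preneutrophils had 739.7 CPM ± 203, the clusters from immature to *Retnlg*-led mature cells had 1439.1 CPM ± 199, 1713.1 CPM ± 247 and 1636.8 CPM ± 135, and the *Il1b*-led cluster had 969.0 CPM ± 121. *Lgals1*, *Lgals9* and *Anxa5* were low throughout. A further mature cluster held only 10 to 19 cells a library, and its values scattered from 367.3 to 1726.5 CPM for *Lgals3*.

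**Figure D3:**
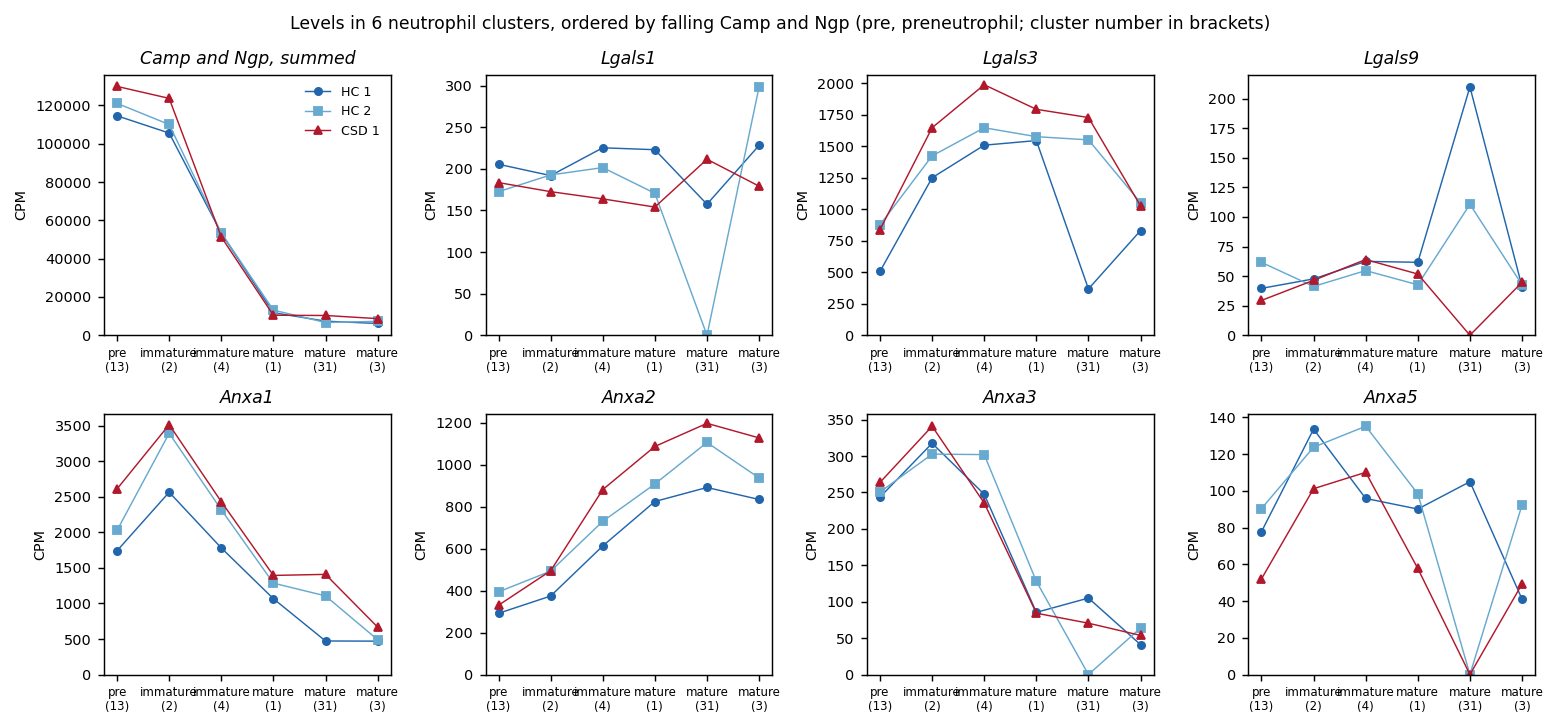
Level (y axis, CPM) of *Camp* and *Ngp* summed and of the 7 genes in the 6 neutrophil clusters (x axis), ordered by falling *Camp* and *Ngp*, with 1 line per library. In the means *Anxa1* goes from 3158.9 CPM in the first immature cluster to 542.4 CPM in the *Il1b*-led mature cluster, while *Anxa2* goes from 454.1 to 967.0 CPM.

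Of the wider list of 29 related genes, 28 were in the files. Among the other galectins *Lgals8* was highest in microglia-like cells at 51.3 CPM ± 8.75, and *Lgals12* had 0 of 21056807 UMIs in the 15 classes, which allows a level of up to 0.142 CPM. *Lgals2* had 1 UMI, *Lgals7* 2, *Lgalsl* 34 and *Lgals4* 42. *Lgals3bp*, which encodes a secreted galectin-binding glycoprotein, was highest in microglia-like cells at 115.8 CPM ± 22.0.

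Among the other annexins *Anxa6* was highest in NK-like cells at 190.8 CPM ± 71.3, *Anxa7* in fibroblast-like cells at 95.7 CPM ± 24.3, *Anxa4* in fibroblast-like cells at 69.9 CPM ± 23.9 and *Anxa11* in immature neutrophil-like cells at 57.9 CPM ± 3.61. *Anxa10* and *Anxa13* had 0 UMIs, *Anxa8* 4 and *Anxa9* 7. The partners of the annexins differed in their order: *S100a11* was highest in mature neutrophil-like cells, at 8199.8 CPM ± 672, whereas *S100a10*, the partner of annexin A2, was highest in NK-like cells at 1269.6 CPM ± 131.

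The formyl peptide receptor genes through which annexin A1 acts were highest in mature neutrophil-like cells, *Fpr1* at 180.8 CPM ± 51.3 and *Fpr2* at 258.5 CPM ± 26.3. *Fpr2* was nearly as high in immature neutrophil-like cells, with 249.7 CPM ± 17.9.

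The genes most like each member were found by Pearson's r of log2(mean CPM + 10) over the 15 classes, among 7189 genes with at least 200 UMIs. The points share libraries and depth, so r is a description. For *Lgals3* these were *Gpr141* (r = 0.96), *Cfp* (0.94) and *Gpx1* (0.92), for *Lgals1* *Psme2* (0.89), *Lman2* (0.86) and *Bag1* (0.85), and for *Lgals9* *Stambpl1* (0.94), *Zfp422* (0.87) and *Klhl6* (0.87). For *Anxa1* they were *Pram1* (0.94), *Mapk13* (0.93) and *Lrg1* (0.92), for *Anxa2* *Serf2* (0.87), *Emb* (0.86) and *S100a6* (0.86), for *Anxa3* *Tcn2* (0.88), *Lims1* (0.86) and *Itm2b* (0.85), and for *Anxa5* *Tmem205* (0.92), *Fam234a* (0.90) and *Rnd3* (0.88). Among the members themselves r was highest between *Lgals3* and *Anxa2*, at 0.72, and lowest between *Lgals9* and *Anxa5*, at -0.43.

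The comparison of CSD with HC asks whether meningeal myeloid cells of stressed mice differ in expression. UMIs were summed per library over the cells of a class and fitted with edgeR's quasi-likelihood test, keeping a gene where over 15% of the cells had a UMI of it. With 1 residual degree of freedom, all spread came from the difference between the 2 HC pools, and the single CSD pool was taken to vary as much. Values below are CPM after TMM normalization, and log2 fold changes of CSD over HC carry the standard error of the fit.

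Neutrophil-like cells, the mature and immature classes together, numbered 775, 549 and 1267 in HC 1, HC 2 and CSD 1. None of the 6 members fitted passed an adjusted p of 0.05 by edgeR, where 11 of 1180 genes (0.932%) did, 5 of them higher in CSD (0.424%). DESeq2 passed 0 members and 15 of all genes. At an unadjusted p under 0.05 there were 2 of the 6 members and 170 of the 1180 genes. CSD lay above both HC libraries for 4 members and below both for 2, as it did for 40.3% and 37.5% of all genes fitted. The median log2 fold change was 0.23 over the 6 members and -0.00 over all genes. A fit without the filter took in 14701 genes, most of them below it. Its share over all genes is therefore no like measure for the 6 members that the filter kept. In a fit of all genes with a UMI *Lgals3*, *Anxa1* and *Anxa2* passed, 3 of 7 members, where 275 of 14701 genes (1.87%) did; that scaling moved the median log2 fold change of the 1180 genes up by 0.21.

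*Lgals3* had 1542.2 and 1595.1 normalized CPM in the HC libraries and 2032.1 in CSD, a log2 fold change of 0.37 ± 0.13. *Anxa1* had 2068.8 and 2473.3 in HC and 2970.1 in CSD, a log2 fold change of 0.39 ± 0.16. *Anxa2* had 693.4 and 760.5 in HC and 925.4 in CSD, a log2 fold change of 0.35 ± 0.14. In all 3 genes CSD was the highest library, by more than the gap between the HC libraries. Within the mature cells alone the log2 fold changes were 0.33 ± 0.14 for *Lgals3*, 0.45 ± 0.16 for *Anxa1* and 0.37 ± 0.14 for *Anxa2*, and within the immature cells 0.38 ± 0.13, 0.34 ± 0.16 and 0.34 ± 0.16.

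*Anxa3* had 249.5 and 252.7 normalized CPM in HC and 271.2 in CSD. *Anxa5* had 121.0 and 125.9 in HC and 103.9 in CSD, a log2 fold change of -0.25 ± 0.18, which was 0.46 once free RNA was subtracted. *Lgals1* had 246.4 and 215.6 in HC and 196.6 in CSD, a log2 fold change of -0.23 ± 0.14. The share of UMIs estimated as free RNA in these cells was 40.0%, 35.9% and 28.8%, and *Lgals1* lay at or below the level that it gives. *Lgals9* had a UMI in 11.7% of the cells and was not fitted; its unnormalized level was 55.2, 45.8 and 51.4 CPM.

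Markers of other cells moved between the libraries in the neutrophil-like class. The summed level of the 10 border macrophage markers was 3088.7, 1260.7 and 809.8 CPM, with 6 of 10 lower in CSD than in both HC libraries, and that of the 9 microglia markers 425.9, 387.4 and 148.5 CPM, with all 9 lower. The 10 erythroid markers summed to 1640.4, 2851.5 and 4438.7 CPM, with all 10 higher in CSD. The 10 immature neutrophil markers summed to 79149.9, 83338.9 and 97169.1 CPM, with 7 of 10 higher. The 9 mature B markers summed to 896.9, 813.0 and 317.8 CPM, with 8 of 9 lower. In these 5 lists no marker was at 0, and their part in the differences of the members was not tested.

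Monocyte-like cells numbered 162, 104 and 146. None of the 7 members passed by edgeR, where 6 of 3117 genes (0.192%) did, 2 of them higher in CSD (0.0642%). DESeq2 passed 0 members and 3 of all genes. At an unadjusted p under 0.05 there were 2 of the 7 members and 376 of the 3117 genes. CSD lay above both HC libraries for 4 members, below both for 2 and between them for 1, against 35.6% above and 36.3% below among all genes fitted. The median log2 fold change was 0.18 over the members and -0.01 over all genes. Here too most of the 13406 genes of the unfiltered fit lay below the filter, which kept all 7 members. Without the filter *Lgals1* passed, 1 of 7 members, where 118 of 13406 genes (0.88%) did.

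*Lgals1* differed most in these cells, with 1227.9 and 1003.2 normalized CPM in HC and 1768.4 in CSD, a log2 fold change of 0.66 ± 0.20. *Anxa1* had 285.4 and 352.3 in HC and 456.0 in CSD, a log2 fold change of 0.52 ± 0.19. *Lgals3* had 3056.9 and 3323.2 in HC and 3952.2 in CSD, a log2 fold change of 0.31 ± 0.21. *Anxa2* followed with 827.3, 872.1 and 960.2. For these 4 genes CSD was the highest library.

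*Anxa5* was lower in CSD than in both HC libraries, with 490.0 and 537.0 against 414.2 and a log2 fold change of -0.31 ± 0.18, and so was *Anxa3*, with 123.9 and 124.6 against 108.9. *Lgals9* had 73.5, 85.9 and 82.3, with CSD between the HC libraries.

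The monocyte-like class was made of 2 clusters in different proportions. Cluster 9, led by *Fn1*, *F13a1* and *Vcan*, held 97, 76 and 126 cells, and cluster 19, led by *Retnla*, *Lyz1* and *Ms4a4c*, held 65, 28 and 20. The leading genes of cluster 19 also included *Cd209a*, *H2-DMb1*, *Ifit3* and *Irf7*. Its second-best marker list was that of conventional dendritic cells, to which *Cd209a* belongs. The summed level of 9 mature B markers, *Cd74* among them, moved with the proportions of the clusters, at 9180.6, 4214.7 and 2847.5 CPM. *Cr2* was at 0, and 8 of 9 were lower in CSD than in both HC libraries. Within cluster 9 the log2 fold change was 0.57 ± 0.20 for *Lgals1*, 0.27 ± 0.21 for *Anxa1*, 0.20 ± 0.20 for *Lgals3* and 0.02 ± 0.20 for *Anxa2*. Within cluster 19 it was 0.43 ± 0.28 for *Lgals1*, 1.28 ± 0.33 for *Anxa1*, 0.07 ± 0.29 for *Lgals3* and 0.30 ± 0.30 for *Anxa2*.

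The *Lgals3* value was thus smaller in each cluster than in the class, and that of *Anxa1* was larger in cluster 19, with its 20 CSD cells, than in cluster 9; these differences between clusters were not tested. The 10 immature neutrophil markers also summed to 11110.3, 11966.7 and 15702.6 CPM in monocyte-like cells, with none at 0 and 9 of 10 higher in CSD than in both HC libraries, and *Anxa1* there lay at 1.12 to 1.59 of the estimate from free RNA. The 10 border macrophage markers summed to 4806.7, 3022.1 and 1511.7 CPM, with 8 of 10 lower in CSD, the 9 microglia markers to 748.5, 626.7 and 274.8 CPM, with all 9 lower, and the 10 erythroid markers to 1634.1, 2991.7 and 4529.3 CPM, with 9 of 10 higher. None of these markers was at 0, and the part of these lists in the differences of the members was not tested.

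Border macrophage-like cells numbered 319, 64 and 128. By edgeR 0 of 1909 genes passed (0%), members included, with 56 genes at an unadjusted p under 0.05, none of them a member, and 1 gene by DESeq2. Without the filter 12 of 13376 genes (0.0897%) passed, again no member. CSD lay above both HC libraries for 4 members, below both for 0 and between for 3, against 30.7% above and 31.6% below among all genes fitted. The median log2 fold change was 0.26 over the members and -0.02 over all genes.

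*Anxa1* had 77.1 and 140.1 normalized CPM in HC and 167.4 in CSD, from 64, 22 and 44 UMIs, a log2 fold change of 0.80 ± 0.40 that was 0.24 without HC 1. *Lgals9* had 73.5 and 95.6 in HC and 125.6 in CSD, a log2 fold change of 0.66 ± 0.36. *Lgals3* had 591.6 and 879.1 in HC and 993.3 in CSD, a log2 fold change of 0.46 ± 0.34. For *Anxa1* and *Lgals3* CSD was nearer to HC 2 than the HC libraries were to each other.

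*Anxa5* had 300.0 and 356.7 in HC and 388.2 in CSD, a log2 fold change of 0.26 ± 0.32. *Lgals1* had 843.4 and 732.6 in HC and 749.7 in CSD, *Anxa2* 137.4 and 216.6 against 171.3, and *Anxa3* 144.6 and 223.0 against 175.1. In these last 3 CSD lay between the HC libraries.

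This class too joined 2 clusters, cluster 10 rich in MHC class II genes with 141, 55 and 74 cells and cluster 11 led by *Pf4*, *Mrc1* and *Lyve1* with 178, 9 and 54. *Lgals3* had a log2 fold change of 0.65 ± 0.27 in the first and -0.21 ± 0.44 in the second, where HC 2 had 9 cells. *Anxa1* had 0.35 ± 0.42 and 1.68 ± 0.58, the larger value again in the cluster with 9 cells of HC 2. *Lgals9* had 0.46 ± 0.46 and 1.00 ± 0.59. Immature neutrophil markers summed to 8396.5, 10069.9 and 12710.1 CPM in the class, with none of the 10 at 0 and 7 of 10 higher in CSD than in both HC libraries, beside an *Anxa1* level below the estimate from free RNA in every library. The 10 erythroid markers summed to 1673.5, 3004.6 and 4869.1 CPM, with *Tspo2* at 0 and 6 of 10 higher in CSD. The part of these lists in the differences of the members was not tested.

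**Figure D4:**
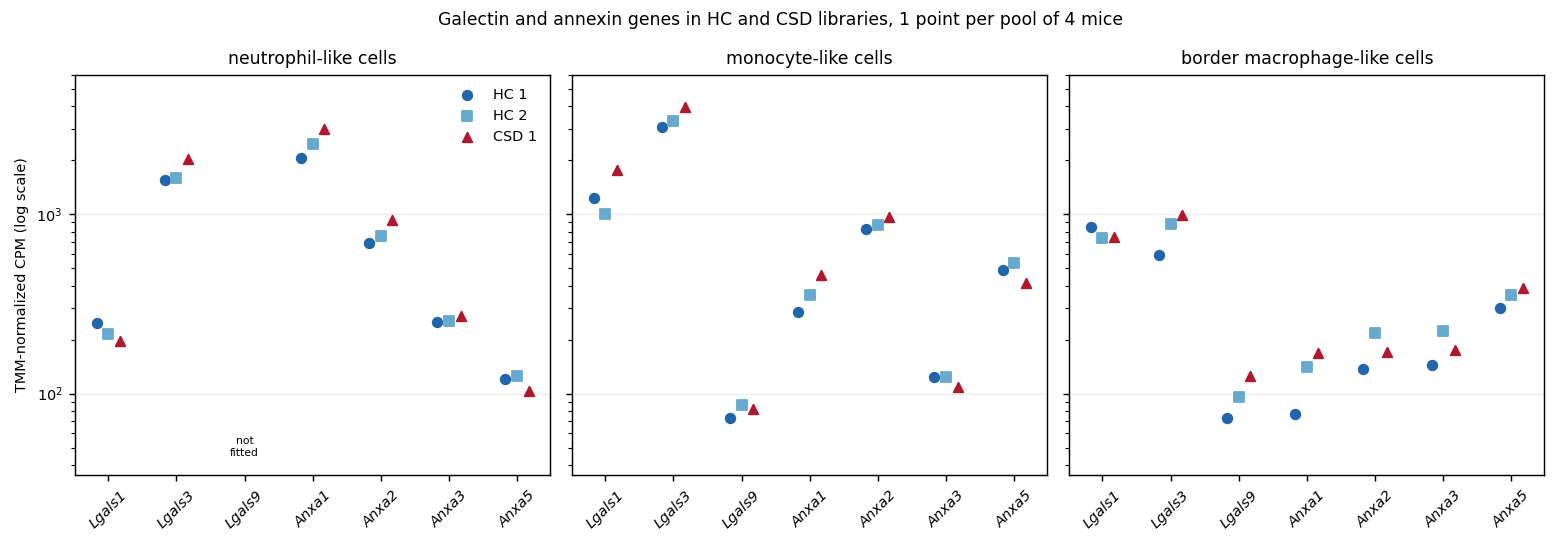
TMM-normalized CPM (y axis, log scale) of the 7 genes (x axis) in neutrophil-, monocyte- and border macrophage-like cells, with 1 marker per library. In neutrophil-like cells CSD lies above both HC libraries for *Lgals3* (2032.1 against 1542.2 and 1595.1), *Anxa1*, *Anxa2* and *Anxa3*; in monocyte-like cells it lies highest for *Lgals1* (1768.4 against 1227.9 and 1003.2).

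Over the 15 classes, the members were seen in more than 15% of the cells in 87 pairs of member and class. The unnormalized CSD level lay above both HC libraries in 39 of them and below both in 24, where all genes had 32% and 34.2% of 37212 pairs. *Lgals3* lay above both in 11 of 15 classes and below both in 0, *Anxa1* above in 6 and below in 2 of 12, and *Anxa5* above in 2 and below in 7 of 11. The classes share their libraries and free RNA, so these counts are not independent. In barcodes of at most 100 UMIs *Anxa1* had 486.9, 834.6 and 969.0 CPM and *Lgals3* 952.0, 1134.9 and 1138.8 CPM. Both genes were lowest in HC 1, and HC 2 and CSD 1 were nearly level for *Lgals3*.

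Of the wider list, 0 of 8 genes fitted passed in neutrophil-like cells, 0 of 11 in monocyte-like cells and 0 of 7 in border macrophage-like cells by edgeR, and 0 by DESeq2. At an unadjusted p under 0.05 there were 0, 4 and 0, where all genes had 170 of 1180, 376 of 3117 and 56 of 1909. Their median log2 fold changes were 0.03, -0.09 and 0.10.

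Within the wider list, the annexin partners had the lowest adjusted p in monocyte-like cells. *S100a10* had 944.0 and 1076.2 normalized CPM in HC and 1506.1 in CSD, a log2 fold change of 0.58 ± 0.19 (adjusted p = 0.283, edgeR), and *S100a11* 1292.8 and 1329.7 against 1877.3, a log2 fold change of 0.52 ± 0.19 (adjusted p = 0.335, edgeR). *Anxa4* had 40.4 and 58.0 against 24.1, a log2 fold change of -0.99 ± 0.39 (adjusted p = 0.388, edgeR). In neutrophil-like cells *S100a10* had 131.7 and 148.2 against 109.9 and *S100a11* 6079.9 and 5861.9 against 6990.1. *Fpr1*, the receptor gene, had 92.2 and 141.6 against 160.2 there, a log2 fold change of 0.47 ± 0.26 (adjusted p = 0.434, edgeR). *Lamp1*, a lysosomal glycoprotein gene, had 157.4 and 144.9 against 116.0 in the same cells. *Spn*, which encodes the sialoglycoprotein CD43, had 36.0 and 30.1 against 50.7 in monocyte-like cells. In border macrophage-like cells *Itgb1*, an integrin gene, had 75.9 and 101.9 against 102.8. In the unfiltered fit *S100a11* and *Fpr1* passed in neutrophil-like cells, 2 of 22 genes of the list, where 275 of 14701 genes (1.87%) did.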

How the data were processed

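Values came from the deposited matrix of UMI counts, made by the authors with Cell Ranger 2 on build mm10, per the submitters' processing notes, from 10x 3′ libraries, with every barcode kept and no normalization. The suffix of a barcode gave its library. Every column was used. The members and lists were chosen with earlier results of these data known.

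Doublets were marked by Scrublet (scanpy 1.11.5) at its automatic threshold, or in CSD 1, where that marked 0.109%, by the top scores, which removed 1.92%, 0.94% and 3.74%. Cells were clustered on 2000 variable genes without the members and the wider list, using 50 components, a mutual-nearest-neighbour correction and Leiden clustering at resolution 1. A cluster took the name of the marker list with the highest mean score; clusters with under 3 detected markers, a score under 1 (set after the data were seen) or mostly other markers stayed unnamed.

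Sums were fitted with edgeR 4.0.16 (TMM, glmQLFit and glmQLFTest, two-sided, Benjamini-Hochberg, threshold of 0.05), and with DESeq2 1.42.0 as an alternative. All barcodes together held 9891861, 8814690 and 10206236 UMIs in HC 1, HC 2 and CSD 1. Levels rest on the cells kept, which held 8731124, 5154523 and 9040614 UMIs. The p-values rest on the spread of 2 pools.

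Genes were named by rule: the members, the other galectins and annexins, *S100a10*, *S100a11*, the genes of the wider list past the threshold or of largest change, and the 3 genes most like each member. On simulated data (10 draws), edgeR was tested with 100 genes changed 2-fold and 100 others changed 4-fold in the same draws. It recovered a median of 90.5% of the 2-fold changes in neutrophil-like cells (1180 genes, 57% to 95%). The median was 48% in monocyte-like cells (3117 genes, 30% to 58%) and 26.5% in border macrophage-like cells (1909 genes, 12% to 35%). These shares hold for that mix of changes. Every gene was drawn with the same spread, and no change under 2-fold was simulated. With 200 genes changed, all 2-fold, 1 of 10 draws recovered none in neutrophil-like cells (median 89.2%, up to 95.5%) and 1 of 10 none in border macrophage-like cells (median 18.2%, up to 25%).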

Additional observations from a re-analysis of the deposited data

Results flagged for a closer look

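*Lgals1* had a log2 fold change of CSD over HC of -0.23 in neutrophil-like cells, where CSD lay below both HC libraries, and of 0.66 in monocyte-like cells, where it lay above both. *Anxa3* had 0.11 in neutrophil-like cells, above both, and -0.19 in monocyte-like cells, below both. *Anxa5* lay below both HC libraries in neutrophil-like cells, at -0.25, and in monocyte-like cells, at -0.31, and above both in border macrophage-like cells, at 0.26. In neutrophil-like cells *Lgals1* lay at 0.818 to 0.973 of the level estimated from free RNA, and *Anxa5* had 0.46 with free RNA subtracted. Over the alternatives *Anxa3* ranged from -0.09 to 0.32 in neutrophil-like cells and from -0.33 to 0.0 in monocyte-like cells. The classes come from the same libraries, and the difference between classes was not tested for any of these genes.

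In barcodes of at most 100 UMIs, which no comparison of classes used, *Anxa1* had 969.0 CPM in CSD against 486.9 and 834.6 CPM in the HC libraries.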

How the results depend on the processing

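Over the alternatives that gave a value, the sign of the log2 fold change held for *Lgals1*, *Lgals3*, *Anxa1* and *Anxa2* in neutrophil-like cells. It also held for these 4 genes and *Anxa5* in monocyte-like cells and for *Lgals9*, *Anxa1* and *Anxa5* in border macrophage-like cells. Subtraction of free RNA gave no value for *Lgals1* in neutrophil-like cells and for *Anxa1* in border macrophage-like cells. Both lay below the estimate from free RNA in every library, so no counts were left to fit. *Anxa3* in neutrophil-like cells ranged from -0.09 to 0.32. The sets made of single clusters or stages were chosen after seeing the data. The causes of the changes below were not tested. With 1 CSD pool and 1 residual degree of freedom, the counts of genes past the threshold moved by over 1.5 times under the settings below, and CSD could not be left out.

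Genes past the threshold in neutrophil-like cells, 11 as reported, were 275 with no filter on the share of cells, 1 with a minimum of 1000 UMIs, 1 with doublets kept, 22 with a mitochondrial limit of 5%, 19 with no neighbour correction, 0 with free RNA subtracted, 37 in thinned cells, 5 in mature and 1 in immature cells alone. In monocyte-like cells, 6 as reported, they were 3 by DESeq2, 118 with no filter, 1 with 1000 UMIs, 20 with doublets kept, 46 with the limit of 5%, 1 with no correction, 104 at Leiden resolution 2, 0 with free RNA subtracted, 51 in cluster 9 and 16 in cluster 19. In border macrophage-like cells, 0 as reported, they were 1 by DESeq2, 12 with no filter, 6 with 1000 UMIs, 1 with doublets kept, 10 with no correction, 5 at resolution 2, 2 in thinned cells, 5 in cluster 10 and 1 in cluster 11. With no filter 3 members and 2 genes of the wider list passed in neutrophil-like cells, where 275 of 14701 genes (1.87%) did. In monocyte-like cells 1 member passed without the filter, where 118 of 13406 genes (0.88%) did. In cluster 19 alone, which held 20 CSD cells, *Anxa1* had a log2 fold change of 1.28 ± 0.33.

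With free RNA subtracted the levels in the class that was highest as reported were 3522.6 CPM for *Lgals1*, 4094.3 for *Lgals3*, 447.1 for *Lgals9*, 3685.3 for *Anxa1*, 1191.0 for *Anxa2*, 655.4 for *Anxa3* in microglia-like and 539.9 for *Anxa5* in fibroblast-like cells. *Lgals9* in pre-B-like cells was 382.6 CPM with 1000 UMIs, 278.6 with no correction and 273.3 in thinned cells. *Anxa3* in microglia-like cells was 440.4 in thinned cells. *Anxa5* in fibroblast-like cells was 431.9 with 1000 UMIs, 434.5 with doublets kept, 435.0 with no correction and 359.4 in thinned cells.

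No paired analysis was possible because the HC and CSD pools came from different mice and no label pairs them.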
